A study of Mus musculus with 2 samples.

Results

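The lipid-droplet-rich spots of the HFD section were the 693 spots with the highest share of the lipid droplet transcripts Cidea, Cidec, Plin2 and Plin4. They were taken from 3469 HFD spots with at least 5000 unique molecular identifiers (UMIs, each counting 1 captured RNA molecule), out of 3594 HFD spots over tissue and 7286 spots over tissue in both sections. For each spot the UMIs of the 4 genes were divided by all UMIs, the top 20% formed the lipid-droplet-rich group and the bottom 20%, again 693 spots, the lipid-droplet-poor group. The UMIs of all other genes were then summed over each group and given as pooled CPM (the UMIs of a gene scaled to the same UMI total in every group).

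The data came from 10x Visium spatial transcriptomics (ST) of 10 µm liver sections, in which each barcoded spot covers a small area that can hold several cells. The HFD section came from 1 male C57BL/6J mouse that started at 5 weeks of age and, after 1 week of acclimation, was fed a 60% fat diet for 14 weeks. The NCD section came from 1 such mouse on normal chow, and both mice received distilled water by mouth during the 8 weeks of intervention that followed. No transgene or deletion was used. Diet, mouse, section and slide cannot be told apart, spots of 1 section are not replicates, and no test between groups of spots was therefore made. The HFD section held 72118803 UMIs over tissue and the NCD section 29037988. Each interval is an exact 95% interval and reflects counting error alone. The labels give the tissue as liver, yet also the entries hematopoietic stem cell and Immune cell, and these went against the counts. The hepatocyte markers Alb, Apoa1, Cyp2e1, Mup3 and Pck1 reached 66262 CPM together in the lipid-droplet-rich spots, against 4.91 CPM for the T cell markers and 15.03 CPM for the B cell markers.

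Lipid droplets store triglyceride and cholesteryl ester in a core that is coated by proteins. Plin2 encodes the perilipin that coats most droplets of hepatocytes, Plin4 a perilipin of small nascent droplets, and Cidec and Cidea encode proteins that sit where droplets touch and let them fuse into larger ones. Cidec, Cidea and Plin4 are scarce in lean liver and belong to the adipocyte-type genes that PPARγ switches on in fatty liver. Hepatocytes also differ by their place in the lobule: those around the central vein (pericentral) make glutamine and carry most cytochrome P450 enzymes, those around the portal tract (periportal) make urea and glucose, and stored fat is often spread unevenly between these zones.

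The promoters of 3 of the ranking genes, and that of Cyp2e1, the most abundant pericentral transcript here, are shown because the ranking and its main correlate, lobule zone, rest on them. The sequences are from RefSeq on GRCm38.p6 and run from 250 bases before to 50 bases after the start of the gene, 5′ to 3′ on the strand of the gene. Capitals mark matches to AGGTCA, the core letters that PPARs and other nuclear receptors bind, or to CTTTGA, the core letters of the TCF/LEF factors of Wnt signalling, searched on both strands. The motifs do not overlap each other in these windows. Plin2 lies at chr4:86670010-86670309, Cidec at chr6:113435711-113436010 (the first of 2 starts in the table), Plin4 at chr17:56109733-56110032 (all on the minus strand) and Cyp2e1 at chr7:140763569-140763868 on the plus strand.
Plin2: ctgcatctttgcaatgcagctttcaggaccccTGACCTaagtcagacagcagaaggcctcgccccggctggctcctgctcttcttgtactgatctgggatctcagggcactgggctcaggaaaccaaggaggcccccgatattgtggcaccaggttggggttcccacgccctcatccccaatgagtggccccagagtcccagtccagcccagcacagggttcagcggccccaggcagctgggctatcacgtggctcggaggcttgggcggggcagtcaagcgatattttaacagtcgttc
Cidec: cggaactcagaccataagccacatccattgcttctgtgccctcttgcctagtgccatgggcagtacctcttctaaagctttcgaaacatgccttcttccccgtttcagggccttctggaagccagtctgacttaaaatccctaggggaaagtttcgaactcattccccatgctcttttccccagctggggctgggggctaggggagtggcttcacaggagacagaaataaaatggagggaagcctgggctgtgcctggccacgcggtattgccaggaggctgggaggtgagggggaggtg
Plin4: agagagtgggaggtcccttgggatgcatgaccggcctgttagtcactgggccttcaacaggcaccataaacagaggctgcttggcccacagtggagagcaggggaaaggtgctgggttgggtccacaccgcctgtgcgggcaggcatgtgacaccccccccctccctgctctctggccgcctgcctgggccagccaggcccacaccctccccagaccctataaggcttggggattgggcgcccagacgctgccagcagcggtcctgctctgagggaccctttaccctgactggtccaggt
Cyp2e1: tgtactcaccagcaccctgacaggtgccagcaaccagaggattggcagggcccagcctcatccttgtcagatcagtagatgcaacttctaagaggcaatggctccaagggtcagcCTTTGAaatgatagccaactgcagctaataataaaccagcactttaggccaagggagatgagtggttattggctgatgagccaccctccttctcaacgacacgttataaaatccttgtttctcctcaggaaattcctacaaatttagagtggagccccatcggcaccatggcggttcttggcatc

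The Plin2 promoter held 1 match, to AGGTCA read on the other strand as TGACCT, beginning at position -218 from the start. That of Cyp2e1 held 1 match to CTTTGA at position -135, and those of Cidec and Plin4 held neither set of letters. AGGTCA was in 16.3% of 32851 promoters of this length, in 6 of 11 promoters of PPARγ and its target genes (54.5%) and in 2 of 8 promoters of pericentral genes. CTTTGA was in 16.0% of all promoters, in 5 of 8 of pericentral genes (62.5%), in 2 of 10 of periportal genes and in 1 of 11 of the PPARγ list. These matches describe letters only.

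The lipid-droplet-rich spots were chosen by the measured UMIs of the 4 markers, so the values of these genes describe the selection and are no result. The last spot inside the group had 39 marker UMIs among 35062 (1112 CPM) and the first outside it had 1111 CPM; at the other end the last spot outside the lipid-droplet-poor group had 594.177 CPM and the first inside 594.059 CPM. The median spot carried 23 marker UMIs in the lipid-droplet-rich group, 16 in the 2083 spots between the groups and 9 in the lipid-droplet-poor group. The median depth was 17279, 19561 and 19678 UMIs per spot in the same order, and the median mitochondrial share of UMIs 4.85%, 5.28% and 5.92%. Plin2 supplied most marker UMIs, at 1031 CPM (1014 to 1049) against 418 CPM, with a median spot at 1021 against 421 CPM. Cidec was at 164 against 29.8 CPM, Plin4 at 69.9 against 17.6 CPM and Cidea at 57.0 against 8.76 CPM. With every spot drawn down to 5000 UMIs, a Plin2 UMI was found in 99.7% of lipid-droplet-rich and 90.3% of lipid-droplet-poor spots, a Cidec UMI in 54.7% and 14%, a Plin4 UMI in 30.01% and 8.66%, and a Cidea UMI in 25.1% and 4.76%. Before drawing down, all 4 genes had a UMI in 259 of 693 lipid-droplet-rich spots (37.4%) and in 11 of 693 lipid-droplet-poor spots (1.59%).

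To ask whether the droplet genes occurred together, each was left out of the ranking and compared between the spots that the other 3 placed at the top and the bottom. All were higher where the other 3 were high. Cidea, the fusion protein best known from brown fat, had a log2 ratio of 1.85 (1.61 to 2.10), with 45.3 against 12.6 CPM. Cidec, its relative of white fat, had 1.48 (1.35 to 1.61), with 127 against 45.6 CPM. Plin4 had 1.2 (1.01 to 1.38), with 56.7 against 24.7 CPM. Plin2 had the smallest log2 ratio, 0.47 (0.42 to 0.51), with 822 against 595 CPM, when spots were ranked by the 3 scarcer genes. The groups overlapped in single spots, since the median spot had no Cidea UMI on either side. The ratios were smaller at lower depth: with ranking and values both at 5000 UMIs per spot they were 1.00 for Cidea, 0.61 for Cidec, 0.68 for Plin4 and 0.19 for Plin2. Across the 3469 spots at 5000 UMIs, Spearman's rho between pairs of the 4 genes ran from 0.04 for Plin2 with Plin4 to 0.10 for Cidea with Cidec, given as a description of sparse counts from 1 section.

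**Figure D1:**
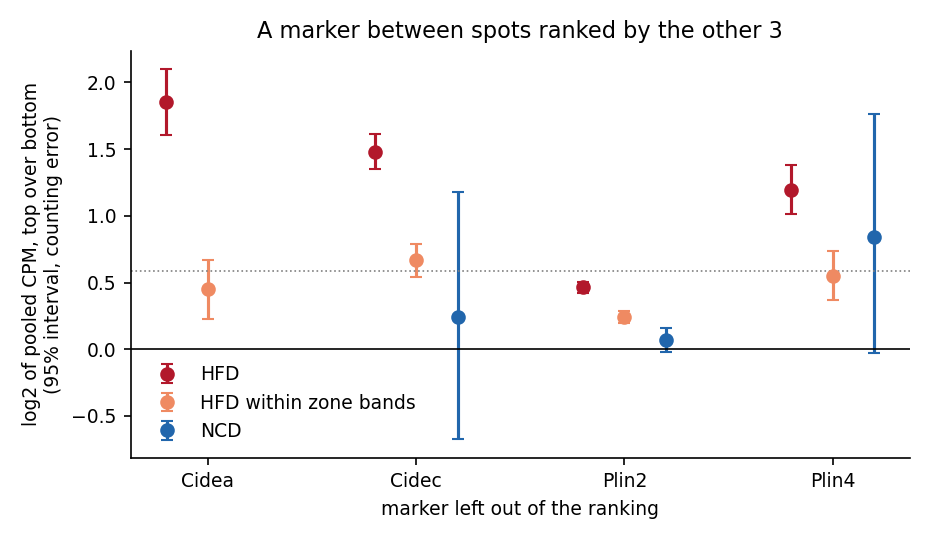
Log2 ratio of pooled CPM of each droplet gene (x axis) between top and bottom spots ranked by the other 3 genes, in the HFD section, in the HFD section with spots ranked within 5 zone bands, and in the NCD section. Points are ratios, bars exact 95% intervals for counting error, the dotted line a ratio of 1.5. All HFD points lie above 0. Cidea had no UMI in either NCD group and is not drawn there. For the NCD value of Plin2, most spots had no UMI of the other 3 genes and were kept in file order.

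Lipid-droplet-rich spots were mostly pericentral in their transcripts. The zone of a spot was measured as the UMIs of pericentral genes (such as Glul, glutamine synthetase, and Cyp2e1, an ethanol-oxidising cytochrome P450) over the UMIs of pericentral and periportal genes together, none of which was used to rank the spots. The median was 65.0% in the lipid-droplet-rich spots, 51.4% in the spots between and 31.4% in the lipid-droplet-poor spots. The quartiles lay at 54.8% and 75% in the lipid-droplet-rich and at 17.4% and 49.5% in the lipid-droplet-poor spots, and the full ranges, 14.9% to 93.9% and 3.56% to 94.6%, overlapped. When all eligible spots were sorted into 5 equal zone bands, the lipid-droplet-rich spots numbered 11, 69, 132, 219 and 262 from the most periportal to the most pericentral band. The lipid-droplet-poor spots numbered 311, 167, 108, 62 and 45 in the same order. A spot mixes several cells, so fewer cells of a type and less RNA per cell cannot be told apart in any of these values.

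Over all eligible HFD spots, the 4 droplet genes climbed from the periportal to the pericentral band to different degrees. Cidea was at 6.22, 13.2, 22.7, 41.3 and 61.7 CPM in the 5 bands. Cidec was at 37.1, 65.4, 99.6, 129 and 124 CPM and levelled between the last bands. Plin4 was at 20.5, 33.9, 39.2, 53.9 and 54.8 CPM, and Plin2 had the flattest course, at 577, 663, 727, 788 and 802 CPM. In the NCD section Plin2 ran from 365 to 426 CPM, Cidec never passed 5.60 CPM, Plin4 was at 10.3 CPM in the most pericentral band, and Cidea had 2 UMIs in all 1695 eligible spots.

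**Figure D2:**
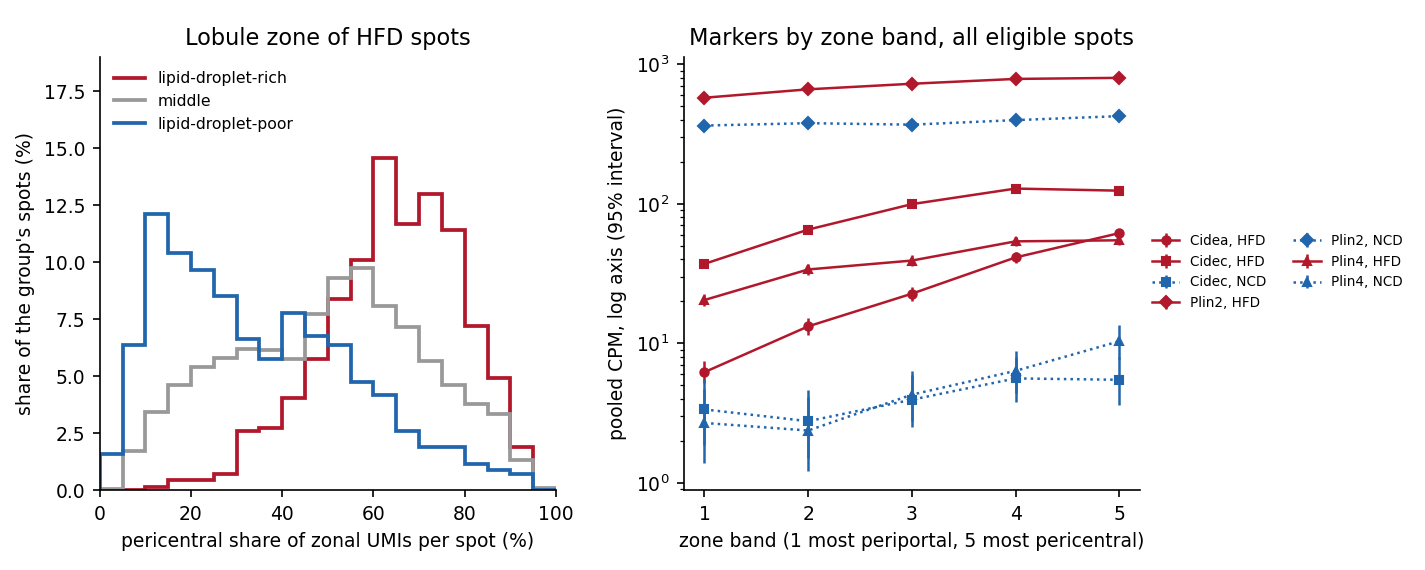
Left, share of spots (y axis, %) by the pericentral share of zonal UMIs (x axis, %) for lipid-droplet-rich, middle and lipid-droplet-poor spots of the HFD section; the lipid-droplet-rich spots peak to the right, with a median of 65.0% against 31.4%. Right, pooled CPM of the 4 droplet genes on a log axis by zone band, HFD solid and NCD dotted, bars showing exact 95% intervals; values of 3 UMIs or fewer are not drawn.

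The lipid-droplet-rich spots also differed among themselves by zone. In their 262 most pericentral spots, Cidea made up 5.76% (5.22 to 6.35) of the marker UMIs, against 2.06% (1.41 to 2.91) in the 69 spots of the second most periportal band and 0.896% (0.185 to 2.59) in the 11 most periportal ones. Plin2 went the other way, from 88.1% (84.1 to 91.3) in the most periportal to 76.5% (75.5 to 77.5) in the most pericentral band. Cidec rested between 12.4% and 13.3% in the 3 pericentral bands and at 5.67% in the most periportal band, where 19 UMIs were counted. Plin4 stayed between 4.39% and 5.68% throughout. Since these are shares of the sum that chose the spots, they describe the selected spots only.

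Outside the 4 markers, 4642 genes had at least 500 UMIs over both groups. Of these, 132 (2.84%) were at least 1.5-fold higher and 69 (1.49%) at least 1.5-fold lower in pooled CPM in the lipid-droplet-rich spots. The median log2 ratio of all these genes was 0.12, so single values are read against that shift. All 132 and all 69 genes kept their sign in the rankings that left out 1 marker each, within bands of equal depth and after drawing down to 5000 UMIs. Drawing down kept the same spots, and the rankings without Cidea, Cidec, Plin2 and Plin4 shared 91.2%, 83.5%, 55.1% and 89.2% of the top spots. A kept sign was therefore likely from the start. With ranking and values both at 5000 UMIs, 14 genes were past the fold higher and 16 lower, of 1628 with at least 500 UMIs.

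The predicted gene Gm13775 had the highest log2 ratio of the named genes, 2.0 (1.89 to 2.12), with 213 against 53.3 CPM, and 0.40 within zone bands. Of the pericentral list, Oat, Slc1a2, Cyp1a2 and Glul were among the 15 genes with the highest log2 ratios. Oat, the ornithine aminotransferase of pericentral cells, was at 1330 against 398 CPM, a log2 ratio of 1.74 (1.70 to 1.78). Its median spot was at 887 CPM in the lipid-droplet-rich and 248 CPM in the lipid-droplet-poor group, and the groups overlapped, with highest spots at 7989 and 7805 CPM. Glul was at 610 against 220 CPM (1.47, 1.41 to 1.53), and Slc1a2, a glutamate transporter, at 107 against 36.4 CPM (1.56, 1.42 to 1.71). Cyp2e1, below the 15 highest, was at 6906 against 2569 CPM (1.43, 1.41 to 1.44), with median spots at 6944 and 2436 CPM.

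The other leading genes were also mostly enzymes and carriers of hepatocytes. Lhpp, a phosphohistidine phosphatase, was at 84.3 against 22.4 CPM (log2 1.91, 1.73 to 2.09). Slc13a3, a sodium-coupled dicarboxylate carrier, was at 42.5 against 11.3 CPM (1.91, 1.66 to 2.17), and Clstn3, the calsyntenin gene whose locus also gives rise to a lipid droplet protein in fat cells, at 42.2 against 12.9 CPM (1.71, 1.47 to 1.95). Pnldc1, an exoribonuclease gene, had a log2 ratio of 1.53. Of the cytochromes P450, Cyp2a5 had 1.62, Cyp2c38 1.61, Cyp1a2 1.53, Cyp2b13 1.52 and Cyp2c37 1.48. Of the major urinary protein genes, Mup17 had 1.63 and Mup11 1.45, and 7 of the 13 counted members were past the fold higher. The sum of that list went the other way, at 13342 against 17297 CPM (-0.37, -0.38 to -0.37), since its most abundant members Mup20 (-0.36) and Mup3 (-0.49) were lower. Members of the Cyp2a, Cyp2b, Cyp2c and Mup families are near copies of each other, so how reads were split among them is uncertain. All 15 were higher in each step from the bottom to the top of 5 equal groups of the ranking.

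Among the 15 genes with the lowest log2 ratios, some were genes of vessels and portal tracts and some were periportal enzymes. Mgp, an inhibitor of calcification in vessel walls, was at 8.25 against 49.1 CPM (log2 -2.57, -2.88 to -2.28). Gsn, the actin-severing protein gelsolin, was at 38.0 against 137 CPM (-1.85, -2.0 to -1.71), Acta2, the actin of smooth muscle, at 13.9 against 48.0 CPM (-1.79, -2.04 to -1.55), and Dpt, the matrix protein dermatopontin, at 8.72 against 28.8 CPM (-1.72). The median spot had no Mgp, Acta2 or Dpt UMI in either group, and 13.1% of lipid-droplet-rich against 33.2% of lipid-droplet-poor spots had an Acta2 UMI (4.76% and 13.6% at 5000 UMIs). Gpx3 was at -1.52, Adamtsl2 at -1.44 and Spp1, osteopontin, at -1.43.

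The other genes among them were mostly enzymes. Sds, serine dehydratase, was at 91.8 against 299 CPM (log2 -1.70, -1.80 to -1.61), with median spots at 70.0 and 254 CPM. Hal, which breaks down histidine, was at 73.4 against 204 CPM (-1.48), Etnppl at 22.1 against 61.7 CPM (-1.48), Aldh1b1, a mitochondrial aldehyde dehydrogenase, at 52.6 against 175 CPM (-1.74) and Hsd17b6 at 57.6 against 152 CPM (-1.39). Slc3a1, a subunit of the cystine transporter, had -1.42 and Enho, which encodes the secreted peptide adropin, -1.49. Serpina1e, an α1-antitrypsin gene with near copies, was at 52.2 against 222 CPM (-2.09, -2.21 to -1.97). All 15 were lower in each step up the ranking.

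The gene lists were counted over members with at least 100 UMIs, where 3.87% of 9469 genes were past 1.5-fold higher and 2.33% past 1.5-fold lower, with a median log2 ratio of 0.12. All 10 counted members of the pericentral list were past 1.5-fold higher (median log2 1.45), and 9 of 13 members of the periportal list were past 1.5-fold lower (median -1.17). Summed over the list, pericentral transcripts were at 9704 against 3524 CPM (log2 1.46, 1.45 to 1.48) and periportal ones at 4683 against 7301 CPM (-0.64, -0.66 to -0.63). The periportal members past the fold included Cyp2f2 (361 against 846 CPM), Gls2, Arg1 and Asl, the latter being enzymes of the urea cycle, while Ass1 (-0.55), Uroc1 (-0.57), Pck1 (-0.29) and Ctsc (-0.24) did not reach it. The iron hormone Hamp, highest between the zones in lean liver, was at 406 against 817 CPM (-1.01, -1.06 to -0.96), with median spots at 380 and 748 CPM.

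Other lipid droplet proteins went both ways. Of 13 counted lipid droplet proteins, 2 were past 1.5-fold higher and 1 past 1.5-fold lower, the median was 0.30 and the log2 ratio of the sum 0.07 (0.05 to 0.10). Fitm1, which helps to package triglyceride into droplets, was at 315 against 128 CPM (1.3, 1.22 to 1.38), with median spots at 296 and 117 CPM. G0s2, the inhibitor of the lipase ATGL, was at 410 against 226 CPM (0.86, 0.79 to 0.92). Hsd17b13, a droplet-bound enzyme of hepatocytes, was lower, at 601 against 1042 CPM (-0.79, -0.83 to -0.75). Plin5 (0.23), Plin3 (0.30) and Cideb (0.35) lay below the fold.

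Of 7 counted genes of PPARγ and its targets, 5 were past 1.5-fold higher (median log2 1.09), with a log2 ratio of the sum of 0.58 (0.52 to 0.64). Pparg itself was at 16.0 against 7.48 CPM (1.09, 0.75 to 1.44). Of its targets, Mogat1, an enzyme of triglyceride synthesis, had a log2 ratio of 1.32, Vldlr, a receptor for lipoproteins, 1.65, and Fabp4, a fatty acid carrier, 0.66. Cfd, adipsin, had 1.78 (1.32 to 2.25) from 160 and 54 UMIs. The abundant uptake receptor Cd36, at 259 against 186 CPM (0.48, 0.41 to 0.55), and Lpl (0.11) did not reach 1.5-fold. Markers of fat cells themselves were near 0: the whole list, Cfd included, summed to 12.8 against 3.84 CPM, Cfd was its only member with 100 UMIs, and Lep was at 0.

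The other lists of lipid metabolism shifted less. Of 20 PPARα targets, 6 were past 1.5-fold higher, among them Acot1 (1.21), Acot3 (0.95) and Pex11a (0.91), which act on fatty acyl-CoA or on peroxisomes, and Cyp4a31 was past it lower; the sum had a log2 ratio of 0.43 (0.42 to 0.43). Of 16 genes of de novo lipogenesis, Acacb (0.84), Me1 (0.79), Elovl6 (0.60) and Pklr (0.60) were past it higher and Acly, which makes cytosolic acetyl-CoA, past it lower (-0.68). The main synthases lay under the fold, Fasn at 0.24 and Scd1, at 6678 against 5216 CPM, at 0.36. Of 15 genes of fatty acid oxidation 1 was past the fold, of 10 of lipolysis only Mgll (0.64), of 13 of fatty acid uptake and esterification 0, and of 12 of lipoprotein assembly 0. Sqle, a rate-controlling enzyme of cholesterol synthesis, was past it lower (-1.27), the sum of its list being at -0.02. The bile acid genes Cyp27a1 (0.76), Cyp7b1 (0.77) and Cyp7a1 (0.59) were past it higher.

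The albumin gene Alb was just past 1.5-fold lower in the lipid-droplet-rich spots, at 46968 against 70453 CPM (log2 -0.58), with median spots at 47243 and 64151 CPM. The 16 acute phase genes summed to -0.36, with 0 past the fold, and the chaperones of the endoplasmic reticulum to -0.29, with 1 of 11 past it. The 13 mitochondrially encoded genes summed to 50881 against 63109 CPM (-0.31), whereas nuclear genes of oxidative phosphorylation were at 0.07 and ribosomal protein genes at 0.02. Abundant transcripts such as these are a large part of the UMI total by which every spot was ranked, so a low level of them raises the rank of a spot by construction.

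Transcripts of other cell types in the spots also differed. Of 8 counted Kupffer cell genes 5 were past 1.5-fold higher, among them Cd5l (0.88), Clec4f (0.87), Vsig4 (0.95) and Folr2 (1.10). The list summed to 678 against 449 CPM (0.59, 0.55 to 0.64). With ranking and values both at 5000 UMIs per spot the list was at 0.31 (0.22 to 0.40), Cd5l at 0.33, Clec1b at 0.19 and Folr2 at 0.11. Clec4f and Vsig4 were at or above 0.54 and 0.50 in every setting without zone bands. Of 12 genes of lipid-associated macrophages, Lgals3 (0.67) and Mmp12 (0.92) were past 1.5-fold higher and Spp1 past 1.5-fold lower. Trem2 (0.36) and Gpnmb (0.41) were not past it, and the sum was at -0.09. Stab2, a scavenger receptor of sinusoidal endothelium, was the 1 of 12 endothelial genes past the fold (0.72, but 0.10 with ranking and values at 5000 UMIs). Smooth muscle transcripts were at 34.0 against 93.4 CPM (-1.46, -1.62 to -1.30), with all 4 counted members past the fold lower, while the epithelial and bile duct list summed to 687 against 718 CPM (-0.07, -0.11 to -0.02). Of its 6 counted genes the scarce Epcam (-1.93), Sox9 (-1.57) and Fxyd3 (-2.60) were past the fold lower, on 30, 32 and 15 UMIs in the lipid-droplet-rich spots, and the more abundant Krt8 (-0.01), Krt18 (-0.17) and Cldn3 (0.26) were not past it. Within zone bands the list was at 0.22. T cell markers had 4.91 against 6.54 CPM (-0.41, -0.90 to 0.06), too few for a direction. The comparison was repeated without the 10% of spots richest in stroma transcripts, meaning those of the smooth muscle and fibrosis lists. The smooth muscle list was then at -0.88, Mgp at -1.60, Gsn at -1.15 and Acta2 at -1.36, and the pericentral list at 1.41. The smooth muscle list and Acta2, a fibrosis gene, set which spots were left out, so their change holds in part by construction. The part of vessels and ducts of portal tracts in the low values was not tested.

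**Figure D3:**
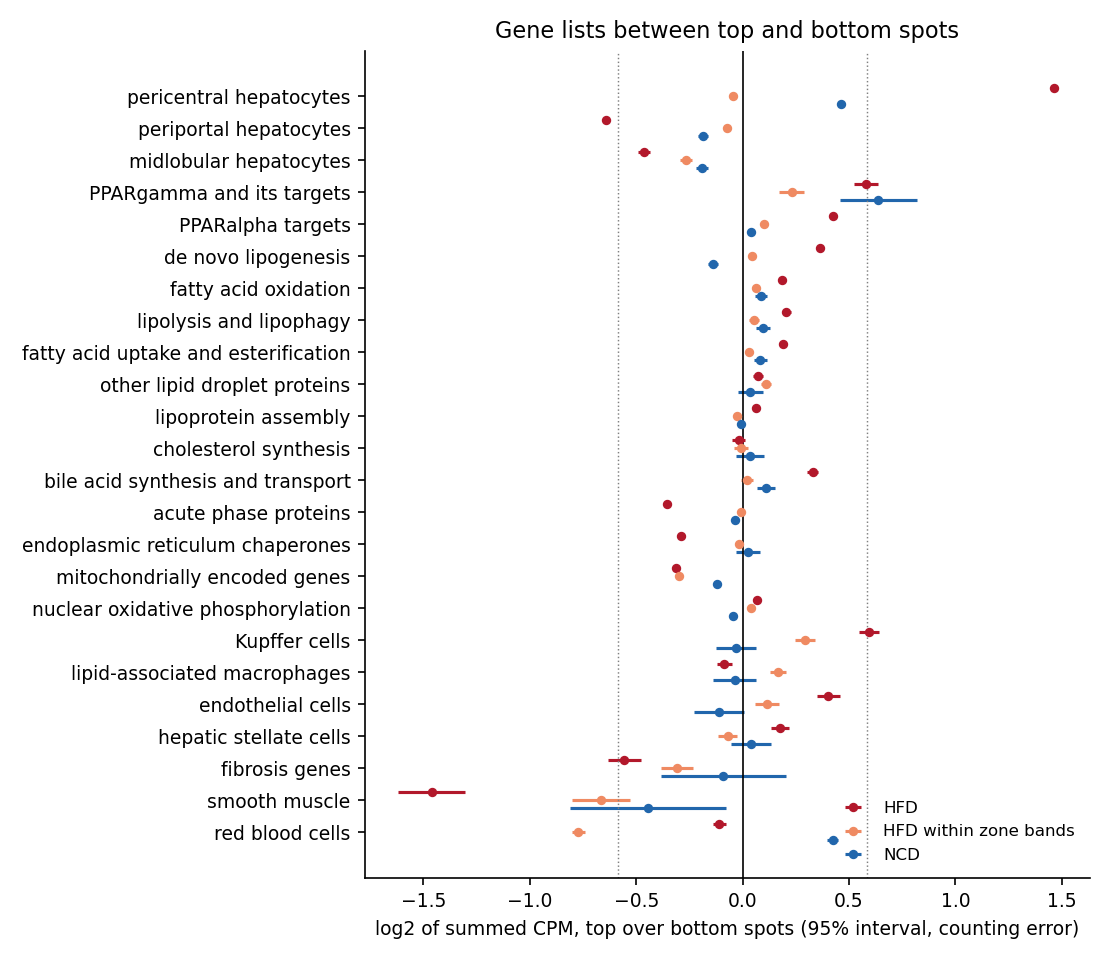
Log2 ratio of the summed CPM of each gene list (rows) between top and bottom spots in the HFD section, in the HFD section ranked within zone bands, and in the NCD section, with exact 95% intervals for counting error; dotted lines mark a ratio of 1.5 either way. The pericentral list moves from 1.46 to -0.05 once spots are ranked within zone bands, which it helped to set, and the red blood cell list from -0.11 to -0.77.

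Because zone differed so much between the groups, the ranking was repeated within each of the 5 zone bands, and the top 20% and bottom 20% of every band were pooled to 690 spots each. The median pericentral share was then 53.4% against 51.0%, and 488 and 491 of the spots were shared with the original groups. The median depth was 18726 against 15501 UMIs per spot. Only 7 of 4505 genes (0.155%) were at least 1.5-fold higher and 18 (0.4%) at least 1.5-fold lower. Of the 132 and 69 genes above, 4 and 9 were past the fold here too. The bands were set by the pericentral and periportal lists, so the pooled sums of these lists, at -0.05 and -0.07, were held near 0 by construction and are no result. The same holds in part for their members Oat (-0.32), Glul (-0.44) and Slc1a2 (-0.61). Of the leading genes that did not set the bands, Cyp2a5 had a log2 ratio of -0.22, Cyp2c37 -0.33, Lhpp -0.06 and Slc13a3 -0.01, so their high values were not seen with the bands pooled. Vldlr, past the fold among the PPARγ targets above, was at -0.38. Single bands differed. In the most periportal band Cyp2a5 was at 0.68 (0.37 to 0.99), Cyp2c37 at 0.09, Lhpp at 0.95 (0.30 to 1.64) and Slc13a3 at 0.54 (-0.44 to 1.55). In the most pericentral band they were at -0.59, -0.64, -0.39 and -0.42 in the same order. In the most pericentral band Oat was at -0.56 and Glul at -0.72, and in the most periportal band at 0.48 and 0.24.

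The link between the droplet genes themselves remained within zone bands, at a smaller size. Left out of the ranking in turn, Cidec had a log2 ratio of 0.67 (0.54 to 0.79), Plin4 0.55 (0.37 to 0.73), Cidea 0.45 (0.23 to 0.67) and Plin2 0.24 (0.20 to 0.28). PPARγ and its targets summed to 0.23 (0.17 to 0.29), with values of 0.30 for Pparg (-0.03 to 0.63) and 0.27 for Cd36 (0.20 to 0.35). Clstn3 had 0.43 (0.21 to 0.66), Fitm1 0.26, G0s2 0.22 and Acacb 0.44, all under 1.5-fold, and de novo lipogenesis summed to 0.04. Hilpda, a lipid droplet protein that inhibits lipolysis, was at 0.72 on small counts, with 8.41 against 5.73 CPM (0.55) in the original groups.

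The genes past 1.5-fold higher within zone bands were picked out after their values were seen, and 4 of these 7 (Ly6d, Mmp12, H2-Q1 and Lgals3) were past it in the original groups too. Ly6d, a surface protein gene of epithelial and B-lineage cells, was at 225 against 113 CPM (log2 0.99, 0.90 to 1.08) and stood higher in every band, at 1.13, 1.00, 0.76, 0.99 and 1.00 from periportal to pericentral. In the original groups its median spot had 150 against 92.2 CPM. Mmp12, the elastase of macrophages, was at 31.1 against 13.6 CPM (1.19, 0.93 to 1.46). The galectin Lgals3 was at 0.61, Gpnmb, a glycoprotein of lipid-laden macrophages, at 0.73, H2-Q1, a class I histocompatibility gene with near copies, at 0.73, Ubd, a ubiquitin-like gene induced by interferon, at 0.78 and Cxcl9, a chemokine induced by interferon-γ, at 0.63. Kupffer cell transcripts summed to 0.29 (positive in all 5 bands, 0.15 to 0.38) and lipid-associated macrophage transcripts to 0.17. Of the 8 counted Kupffer cell genes 0 were past the fold within zone bands. The B cell list was at 7.34 against 9.94 CPM within zone bands (-0.44, -0.83 to -0.05) and at 15.03 against 11.6 CPM in the original groups. Its single bands went both ways, at -0.52, 0.89, -2.10, 1.37 and 0.48 from periportal to pericentral, with 20 against 68 UMIs in the middle band. In the NCD section Ly6d had 19 and 33 UMIs and Mmp12 3 and 7, too few for a direction. Cxcl9 was lower there, with 86 against 148 UMIs (-0.79, -1.19 to -0.40). In the HFD section without zone bands, Mmp12 was at 0.10 and Lgals3 at 0.34 with ranking and values both at 5000 UMIs per spot. The value of Ly6d within zone bands was smaller with no Plin2 in the ranking.

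The 18 genes past the fold lower within zone bands included genes of vessels and matrix. Gsn was at 59.1 against 124 CPM (log2 -1.06, -1.19 to -0.94), Mgp at -1.0, Dpt at -1.0, Gpx3 at -0.83, Myl9 at -0.81, Adamtsl2 at -0.74, Timp2 at -0.65, S100a6 at -0.64 and Acta2 at -0.63. Without the 10% of spots richest in stroma transcripts these genes except Myl9 (-0.62) were under the fold, Gsn at -0.58, Mgp at -0.48 and Dpt at -0.36. Myl9 and Acta2 helped to set which spots were left out. Ly6d stayed at 0.95 and Mmp12 at 0.96 without these spots. The most abundant of the 18 was Gm42418, a predicted gene whose locus overlaps ribosomal RNA, at 1416 against 2296 CPM (-0.70, -0.72 to -0.67). It was at 0.20 in the most periportal band and between -0.69 and -0.97 in the other 4, at -0.02 in the original groups and at 0.60 in the NCD section. The glutamate transporter gene Slc1a2, higher in the original groups, was also among the 18. The globin genes Hba-a1 (-0.90), Hba-a2 (-0.76), Hbb-bs (-0.77) and Hbb-bt (-0.78) were lower, and differed by at most 0.20 between the original groups; as near copies they share reads. The red blood cell list also depended on the ranking without zone bands: it was at -0.11 in the original groups, -0.70 (-0.75 to -0.64) with ranking and values at 5000 UMIs, and 0.27 with Plin2 left out. Within zone bands it was at -0.40, -0.53, -0.72, -0.99 and -1.21 from the periportal to the pericentral band. These transcripts were concentrated in few spots: in the original groups Hbb-bs had median spots of 224 and 185 CPM but highest spots of 21505 and 61602 CPM. Globin UMIs are part of the total that ranked the spots. Mitochondrially encoded genes were at -0.30, as without zone bands, mt-Atp8 at -0.83, Serpina1e at -0.81 and the immunoglobulin gene Igkc at -0.83. Igkc was at 0.32 when Plin2 was left out of the ranking, and only 2 genes were then past the fold on each side.

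**Figure D4:**
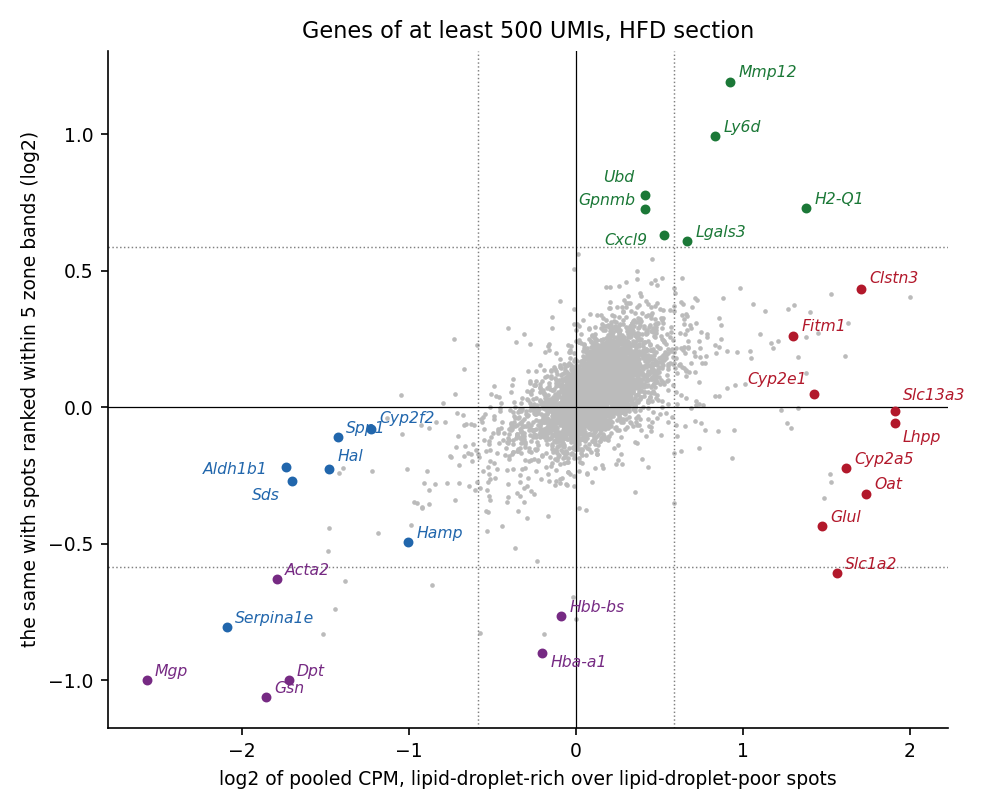
Each point is a gene of at least 500 UMIs, with its log2 ratio between lipid-droplet-rich and lipid-droplet-poor spots (x axis) against the same ratio with spots ranked within zone bands (y axis); dotted lines mark a ratio of 1.5, and the labelled genes were chosen after their values were seen. Pericentral genes such as Oat (1.74 and -0.32) lie far right but near or below 0 on the y axis, as genes that set the bands, whereas Ly6d (0.83 and 0.99) and Mmp12 (0.92 and 1.19) lie high on both.

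**Figure D5:**
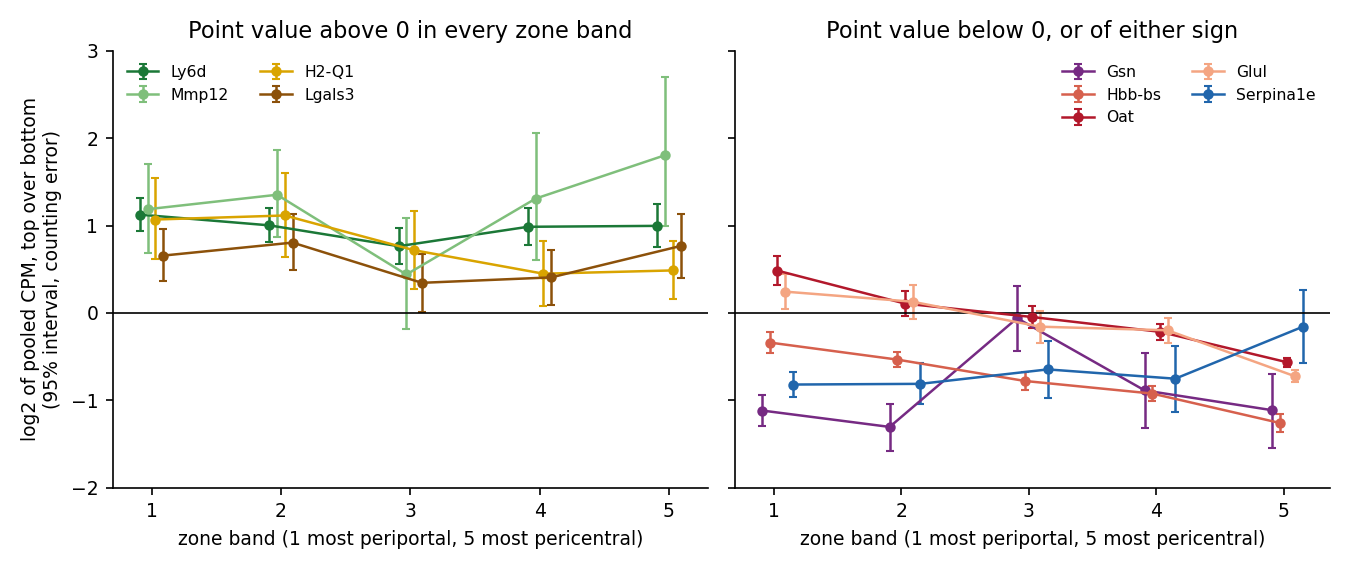
Log2 ratio of pooled CPM between top and bottom spots inside each of the 5 zone bands (x axis), with exact 95% intervals for counting error, for genes chosen after their values were seen. Ly6d, Mmp12, H2-Q1 and Lgals3 lie above 0 in all bands (the interval of Mmp12 reaches below 0 in the middle band), while Oat and Glul go from above to below 0 and Hbb-bs from -0.34 to -1.26.

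The same rule was applied to the NCD section, with 339 spots at each end of 1695 eligible ones. The median NCD spot carried 7 marker UMIs at the top and 1 at the bottom, and the other 3 genes were at or under 10.3 CPM in every zone band of that section. Of 1693 genes with at least 500 UMIs, 7 (0.413%) were at least 1.5-fold higher and 0 lower. Pericentral transcripts were higher there too, with a log2 ratio of 0.46 (0.45 to 0.48), Glul at 1.16, Slc1a2 at 0.98 and Oat at 0.74. Of the 60 genes past the fold higher in the HFD section that had 500 UMIs in the NCD groups, 52 were above 0 and 5 were past the fold. Of 28 lower ones 25 were below 0. The median log2 ratio over all 1693 NCD genes was 0.02. PPARγ and its targets were at 0.64 (0.46 to 0.82), from 646 and 413 UMIs. Only 3 members of that list had 100 UMIs in the NCD groups, and of these Cd36 alone was past the fold. De novo lipogenesis was at -0.14 (-0.16 to -0.12), against 0.36 in the HFD section. The red blood cell list was at 0.42. Left out of the NCD ranking, Plin2 had 0.07 (-0.02 to 0.16), Cidec 0.24 (-0.67 to 1.18) and Plin4 0.84 (-0.03 to 1.76), all intervals reaching 0, and Cidea had 0 UMIs in both groups. Over all eligible NCD spots, 5.84% had a Cidec UMI, 7.26% a Plin4 UMI and 0.118% a Cidea UMI. Without Plin2 most NCD spots were therefore tied at 0 and kept in file order, at both ends of the ranking. The Plin2 value there cannot show whether the genes occurred together.

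To set the sections at like depth, every eligible spot was drawn down to 5000 UMIs before ranking and counting. The pericentral list then had a log2 ratio of 0.70 (0.68 to 0.73) in the HFD and 0.37 (0.34 to 0.40) in the NCD section, PPARγ and its targets 0.34 (0.22 to 0.45) and 0.45 (0.18 to 0.72), and de novo lipogenesis 0.18 (0.15 to 0.20) and -0.10 (-0.14 to -0.07). The median spot still had 7 and 2 marker UMIs at the top and bottom of the HFD and 4 and 0 of the NCD ranking. With 1 section per diet these differences between sections were not tested.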

How the data were processed

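Fresh frozen liver of 1 NCD and 1 HFD mouse was sectioned and profiled by Visium. The authors deposited spot by gene tables of raw UMI counts, without normalization, made with Space Ranger 1.3.1 (build mm10 per the labels); CPM were computed here from these deposited counts. The tables list 32285 genes, and 9469 of the genes with at least 100 UMIs were matched to GENCODE M21. The sections share 3173 printed barcodes, which are positions and not shared cells. Spot positions, images and scRNA-seq data were not used here.

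Spots with at least 5000 UMIs were ranked and pooled as described above. Sums have exact Poisson, shares exact Clopper-Pearson and ratios exact conditional binomial 95% intervals. The named genes were the 15 highest and 15 lowest log2 ratios among genes with at least 500 UMIs that kept their sign in 6 further settings, and list members with at least 100 UMIs. These settings were the rankings without each marker, the ranking within depth bands, and the original groups with counts drawn down to 5000 UMIs. Of 40 symbols on several rows the row with most UMIs was used. Members and lists were chosen with earlier results of these data known. Calculations were tested on simulated data and used pandas 2.3.3, matplotlib 3.10.9, scipy 1.17.1 and numpy 2.4.6 under Python 3.11.15. Alternatives changed the depth minimum, group size, markers, depth and zone bands, weighting, totals and outlying spots. Ranking and values at 5000 UMIs, leaving out stroma-rich spots, 10 zone bands and the alternatives within zone bands were chosen after seeing the data.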

Additional observations from a re-analysis of the deposited data

Results flagged for a closer look

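The 4 droplet genes were also counted in the spots that were called off tissue, which entered no comparison. In the HFD section they reached 722.5 CPM (687 to 759) over 1398 spots off tissue, against 847 CPM over tissue, which lies between the median of the lipid-droplet-poor spots (491 CPM) and that of the lipid-droplet-rich spots (1275 CPM). In the NCD section they reached 438.5 CPM over 1300 spots off tissue, against 397 CPM over tissue. The median spot off tissue had 1176 UMIs in the HFD and 3383 in the NCD section. The part of such UMIs in spots over tissue was not tested.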

How the results depend on the processing

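No paired analysis was possible because there was 1 section per diet and both carry the same single replicate number. Over 182 results and 3241 alternative values, 1978 values differed by less than their interval. A change of sign was counted only for results of at least 1.5-fold in either direction. By that count 28 values changed sign, 24 of these when spots were ranked within zone bands. The cause was not tested, and genes such as Oat and Glul helped to set the bands. A further 1205 values moved beyond their interval. Among these, some results under 1.5-fold also changed sign, such as the B cell list, from 0.37 to -0.62 with no Cidec in the ranking. Of the counts of genes past the fold 24 fell and 6 rose by over 1.5 times. The log2 ratio of the pericentral list (1.46) was 1.53 with the higher minimum of UMIs per spot, 1.54 with 10% of spots at each end, 1.15 with 33% at each end, 1.33 with no Cidea in the ranking, 1.32 with no Cidec, 1.40 with no Plin4, 1.31 with depth bands, -0.047 with zone bands, 1.13 with the mean of CPM per spot, 1.13 with values at 5000 UMIs, 0.85 with ranking at 5000 UMIs, 1.39 with a total without mitochondrial and the 20 most abundant genes, 1.53 with no 1% of spots with most UMIs of the list, 1.41 with no 10% of spots richest in stroma, 0.70 with ranking and values at 5000 UMIs. The log2 ratio of the periportal list (-0.64) was -0.66 with the higher minimum of UMIs per spot, -0.71 with 10% of spots at each end, -0.53 with 33% at each end, -0.60 with no Cidea in the ranking, -0.57 with no Cidec, -0.69 with no Plin2, -0.62 with no Plin4, -0.59 with depth bands, -0.075 with zone bands, -0.54 with the mean of CPM per spot, -0.54 with values at 5000 UMIs, -0.40 with ranking at 5000 UMIs, -0.71 with a total without mitochondrial and the 20 most abundant genes, -0.68 with no 10% of spots richest in stroma, -0.36 with ranking and values at 5000 UMIs. The log2 ratio of PPARγ and its targets (0.58) was 0.69 with 10% of spots at each end, 0.45 with 33% at each end, 0.51 with no Cidec, 0.50 with no Plin2, 0.23 with zone bands, 0.49 with the mean of CPM per spot, 0.46 with values at 5000 UMIs, 0.41 with ranking at 5000 UMIs, 0.51 with a total without mitochondrial and the 20 most abundant genes, 0.34 with ranking and values at 5000 UMIs. Within zone bands the sign also changed for Lhpp (-0.059), Slc13a3 (-0.013), Oat (-0.32), Cyp2a5 (-0.22), Slc1a2 (-0.61), Cyp1a2 (-0.28), Cyp2b13 (-0.25), Cyp2c37 (-0.33), Glul (-0.44), Acot3 (-0.083), Cyp2b9 (-0.0043), Cyp7a1 (-0.35), Cyp7b1 (-0.083), Gulo (-0.0023), Hsd17b13 (0.016), Lect2 (-0.011), Mt1 (0.14), Mt2 (0.25), Mup10 (-0.050), Mup14 (-0.088), Rhbg (-0.12), Tbx3 (-0.11), Vldlr (-0.38). Elsewhere, again among results of at least 1.5-fold, it changed for Des (0.047) and Mmp2 (0.035) without the stroma-rich spots. It also changed for Mup7 (-0.14) with ranking and values at 5000 UMIs, and for Igkc (0.32) within zone bands without Plin2. Left out of the ranking, Cidea had 1.51 with 33% at each end, 0.45 with zone bands, 1.49 with the mean of CPM per spot, 1.12 with ranking at 5000 UMIs, 1.00 with ranking and values at 5000 UMIs. Left out of the ranking, Cidec had 1.82 with 10% of spots at each end, 1.15 with 33% at each end, 0.67 with zone bands, 1.26 with the mean of CPM per spot, 1.2 with values at 5000 UMIs, 0.71 with ranking at 5000 UMIs, 0.61 with ranking and values at 5000 UMIs. Left out of the ranking, Plin2 had 0.39 with 33% at each end, 0.24 with zone bands, 0.41 with the mean of CPM per spot, 0.33 with values at 5000 UMIs, 0.25 with ranking at 5000 UMIs, 0.40 with a total without mitochondrial and the 20 most abundant genes, 0.19 with ranking and values at 5000 UMIs. Left out of the ranking, Plin4 had 0.95 with 33% at each end, 0.55 with zone bands, 0.99 with the mean of CPM per spot, 0.96 with values at 5000 UMIs, 0.59 with ranking at 5000 UMIs, 0.68 with ranking and values at 5000 UMIs. Genes past the fold higher numbered 7 with zone bands, 82 with the mean of CPM per spot, 42 with values at 5000 UMIs, 40 with ranking at 5000 UMIs, 14 with ranking and values at 5000 UMIs, 609 with a ratio of 5 to 4, 37 with a ratio of 2, 366 with at least 100 UMIs per gene, 1559 with no minimum of UMIs per gene. Genes past the fold lower numbered 18 with zone bands, 23 with values at 5000 UMIs, 29 with ranking at 5000 UMIs, 16 with ranking and values at 5000 UMIs, 197 with a ratio of 5 to 4, 24 with a ratio of 2, 221 with at least 100 UMIs per gene, 1671 with no minimum of UMIs per gene. Within zone bands those past the fold higher numbered 4 with 33% at each end, 2 with no Cidec, 2 with no Plin2, 1 with values at 5000 UMIs, 2 with ranking at 5000 UMIs, 4 with no 10% of spots richest in stroma, 1 with ranking and values at 5000 UMIs. Within zone bands those past the fold lower numbered 10 with 33% at each end, 2 with no Plin2, 9 with values at 5000 UMIs, 3 with ranking at 5000 UMIs, 7 with no 10% of spots richest in stroma, 4 with ranking and values at 5000 UMIs. Depth limits all scarce genes: drawing down to 5000 UMIs left 1625 genes with 500 UMIs, so fewer could be counted. Most genes past the fold within zone bands were so only with Plin2, which supplies most marker UMIs, in the ranking: without it Ly6d was at 0.57, Gpnmb at 0.08 and Dpt at -0.28. Values rest on 1 section of 1 mouse per diet, and zones rest on transcripts.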
